A study of Mus musculus with 27 samples.

Results

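The genes described here are 10 genes of the Piwi-interacting RNA (piRNA) pathway, selected by symbol from the 24065 genes of the deposited RNA-Seq table. Their values in the table were not used for this, but earlier results of these data were known. The 10 genes comprise the PIWI proteins Piwil1, Piwil2 and Piwil4, the Tudor domain proteins Tdrd1, Tdrd9 and Tdrd12, and the nuage factors and helicases Mael, Asz1, Ddx4 and Mov10l1. Expression was measured by RNA-Seq in 3 WT and 3 Dnmt3b-/- C57BL/6J mouse embryos collected as littermates at E8.5, with total RNA of the whole embryo depleted of ribosomal RNA. The mutant embryos came from heterozygous parents and were homozygous for a catalytically inactive Dnmt3b allele, which had been obtained by crossing a floxed line (Dnmt3b-2lox) with an ACTB-Cre deleter strain and affects all tissues, and no other allele or treatment was used in either group. The question was which of these germline genes rise in whole embryos without catalytic activity of the de novo DNA methyltransferase DNMT3B, and which do not. Of the 10 genes, 6 rose in Dnmt3b-/- embryos (Mael, Asz1, Piwil2, Mov10l1, Ddx4 and Tdrd1, from 3.39-fold for Tdrd1 to 116-fold for Mael), and the 4 others (Piwil1, Piwil4, Tdrd9 and Tdrd12) did not pass the test in either direction.

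The piRNA pathway is a small RNA defense that operates in the germline, where PIWI proteins loaded with piRNAs recognize transposon transcripts, cleave them in the cytoplasm and direct silencing of transposon promoters in the nucleus. Long precursor transcripts are unwound and cut at the mitochondrial surface, and the loading and amplification of piRNAs take place in the nuage, a perinuclear cytoplasmic granule of germ cells. Tudor domain proteins bind methylated arginines of PIWI proteins and assemble them into this granule. In the mouse the pathway is best known from fetal and adult male germ cells, and many of its genes, though not all, are normally silent in somatic tissues.

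Values are given as normalized counts, that is, the raw counts on a gene scaled with TMM factors to a common library size, and a gene was called when edgeR's quasi-likelihood test gave a Benjamini-Hochberg adjusted p below 0.05 over 15114 tested genes together with a fold change above 2. The libraries held 41489332 to 58470286 counts on genes, so that 3 counts corresponded to 2.377 to 3.501 normalized counts. Reads of Dnmt3b itself, counted over deleted and retained exons alike, numbered 9197, 12195 and 7120 raw counts in WT embryos 1, 2 and 3 and 4068, 3904 and 4196 in Dnmt3b-/- embryos 1, 2 and 3, without overlap (log2 fold change -1.04, SE 0.27, adjusted p = 0.0169 by edgeR). All 10 genes reached the required mean of 10 counts over the 6 embryos, but Mael and Asz1 did so only through their counts in Dnmt3b-/- embryos, and Piwil1 was just above it. Among all tested genes 2.12% were called higher and 3.78% were called lower, 17.6% and 18.1% had an adjusted p below 0.05 in the higher and lower direction, and the median log2 fold change was -0.03. Among the 10 piRNA genes 6 were called higher and 0 lower, and the same 6 were those with an adjusted p below 0.05 by this test. The numbers were also 6 and 0 at an unadjusted p below 0.05, and with DESeq2 and limma in place of edgeR. The median log2 fold change of the 10 genes was 2.47. All 10 genes are also named by the study, as targets of methylation at CpG-rich promoters (CpG islands), from its own data or earlier studies. That list concerns promoter methylation and not expression in Dnmt3b-/- embryos. Since the genes were named there, this count is not independent evidence of a direction. All Dnmt3b-/- values exceeded all WT values for 25.3% of the tested genes and fell short of them for 26.5%, and for 7 and 2 of the piRNA genes.

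**Figure D1:**
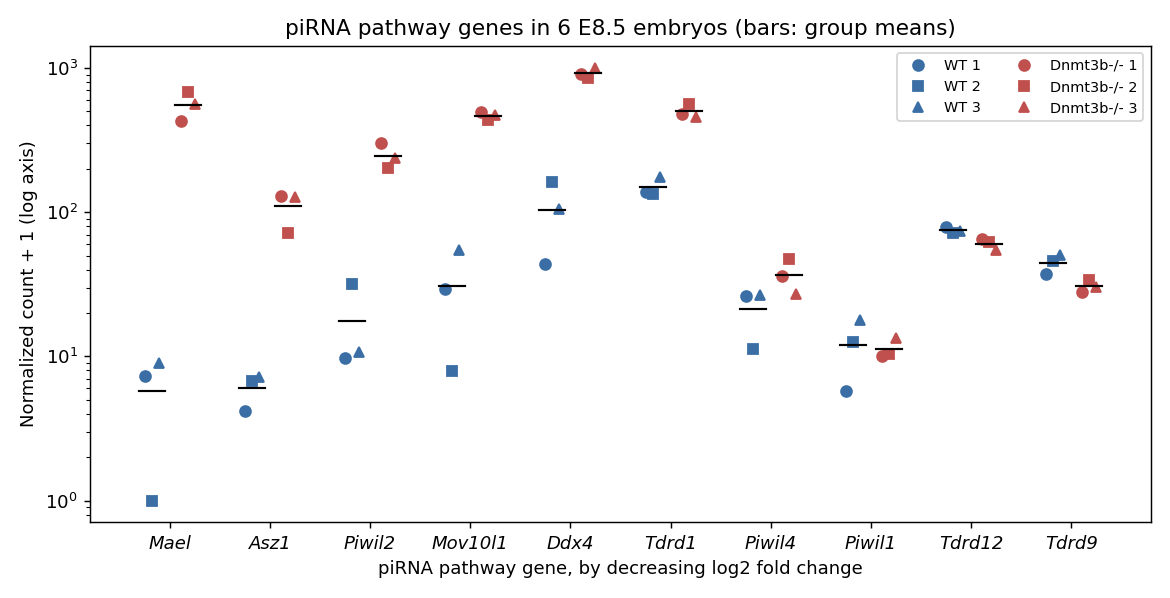
Normalized counts plus 1 of each piRNA pathway gene (log axis) in the 3 WT embryos (blue) and the 3 Dnmt3b-/- embryos (red), with the symbol shape giving the replicate number and black bars the group means. For the 6 genes on the left the 2 groups are far apart, from 3.39-fold (Tdrd1) to 116-fold (Mael) between the means, whereas for Piwil4, Piwil1, Tdrd12 and Tdrd9 the groups lie close together or overlap.

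The 3 PIWI genes responded unequally. Piwil2 (MILI) encodes a PIWI protein of fetal and postnatal male germ cells that acts in the amplification of piRNAs. It gave 8.72, 31.0 and 9.73 normalized counts in WT embryos 1, 2 and 3 and 301, 202 and 236 in Dnmt3b-/- embryos 1, 2 and 3. The lowest Dnmt3b-/- embryo was thus far above WT embryo 2, the highest of the WT group. The means were 16.5 ± 12.6 and 246 ± 50.2 (SD, n = 3 each), a 14.9-fold difference (log2 fold change 3.94, SE 0.49, adjusted p = 0.00100 by edgeR).

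Piwil4 (MIWI2) encodes the PIWI protein that enters the nucleus of fetal male germ cells and directs DNA methylation to transposons. Its normalized counts were 25.4, 10.3 and 25.7 in WT embryos and 35.1, 46.7 and 26.1 in Dnmt3b-/- embryos. The groups did not overlap, but the lowest Dnmt3b-/- embryo was nearly level with the highest WT embryo. The difference did not pass the test (20.5 ± 8.76 against 35.9 ± 10.3, log2 fold change 0.79, SE 0.49, adjusted p = 0.245 by edgeR), and its 95% interval reached from -0.34 to 1.92, which extends beyond a 2-fold increase. In the RefSeq annotation 152 of the 3291 exonic bases of Piwil4 overlap the model gene Gm10706 on the opposite strand, and the strand setting used for counting is not given in the sources used here.

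Piwil1 (MIWI) encodes the PIWI protein of meiotic and postmeiotic male germ cells. It was found at 4.75, 11.48 and 16.8 normalized counts in WT embryos and 9.02, 9.34 and 12.5 in Dnmt3b-/- embryos, with overlapping groups and raw counts of only 6 to 19. The means were 11.02 ± 6.04 and 10.3 ± 1.91 (log2 fold change -0.09, SE 0.63, adjusted p = 0.924 by edgeR). At this depth the 95% interval spanned -1.53 to 1.35, which leaves room for a 2-fold change in either direction but not for a change of the size seen for Piwil2.

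The Tudor domain genes also split. Tdrd1 encodes a scaffold that binds methylated PIWI proteins, chiefly PIWIL2, in the nuage. WT embryos had 136, 132 and 174 normalized counts and Dnmt3b-/- embryos 482, 565 and 456. It was thus expressed above the floor in every WT embryo and rose in all 3 Dnmt3b-/- embryos without overlap, from 148 ± 23.3 to 501 ± 57.0, a 3.39-fold difference (log2 fold change 1.76, SE 0.18, adjusted p = 0.000646 by edgeR). This was the smallest increase among the 6 genes that rose and the one with the smallest standard error.

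Tdrd9 encodes a helicase with a Tudor domain that works with PIWIL4 in silencing transposons. Normalized counts were 36.5, 44.8 and 49.6 in WT embryos and 27.1, 32.7 and 29.5 in Dnmt3b-/- embryos. All Dnmt3b-/- embryos were below all WT embryos, opposite to the direction of Tdrd1, but the difference did not pass the test (43.6 ± 6.64 against 29.7 ± 2.82, log2 fold change -0.55, SE 0.36, 95% interval -1.38 to 0.28, adjusted p = 0.271 by edgeR).

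Tdrd12, which is required for the secondary piRNAs loaded into PIWIL4, gave 78.4, 71.2 and 73.5 normalized counts in WT and 64.1, 60.7 and 53.3 in Dnmt3b-/- embryos. Here too the Dnmt3b-/- embryos were the lower ones without overlap, and the WT embryos were the most uniform of all 10 genes. The difference did not pass the test (74.4 ± 3.71 against 59.4 ± 5.55, log2 fold change -0.32, SE 0.28, 95% interval -0.96 to 0.31, adjusted p = 0.394 by edgeR). For Tdrd9 and Tdrd12 the upper ends of the intervals lie below a log2 fold change of 1, so a 2-fold increase of either was outside them.

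All 4 nuage factors and helicases rose. Mael encodes an HMG-box protein of the nuage needed for transposon silencing and meiosis. Its raw counts were 8, 0 and 9 in WT embryos, and 425, 582 and 492 in Dnmt3b-/- embryos. On the normalized scale these were 6.34, 0 and 7.97 against 426, 679 and 558, a change from near the floor to a level that every Dnmt3b-/- embryo shared. The means differed 116-fold (4.77 ± 4.21 against 554 ± 127, log2 fold change 6.73, SE 0.53, adjusted p = 0.000412 by edgeR), the largest difference among the 10 genes.

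Asz1 (GASZ) encodes an ankyrin-repeat protein that anchors piRNA factors at germ cell mitochondria. Its raw counts were 4, 5 and 7 in WT embryos and 129, 61 and 112 in Dnmt3b-/- embryos, or 3.17, 5.74 and 6.19 against 129, 71.2 and 127 normalized counts. Dnmt3b-/- embryo 2 was the lowest of its group and still above every WT embryo. The means differed 21.7-fold (5.03 ± 1.63 against 109 ± 32.9, log2 fold change 4.43, SE 0.46, adjusted p = 0.000646 by edgeR).

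Mov10l1 encodes the RNA helicase that feeds piRNA precursors to the cutting machinery. WT embryos had 28.5, 6.89 and 54.0 normalized counts, a wide spread with WT embryo 2 lowest, whereas Dnmt3b-/- embryos had 498, 435 and 468. The mean rose 15.7-fold from 29.8 ± 23.6 to 467 ± 31.3 (log2 fold change 3.93, SE 0.52, adjusted p = 0.00127 by edgeR). Ddx4 (mouse vasa homolog) encodes the DEAD-box helicase that is the classical marker of the nuage. It gave 42.8, 161 and 104 normalized counts in WT and 907, 857 and 1005 in Dnmt3b-/- embryos, so the lowest Dnmt3b-/- embryo was above the highest WT embryo, number 2, by a wide margin. The means differed 8.99-fold (103 ± 59.0 against 923 ± 75.6, log2 fold change 3.19, SE 0.40, adjusted p = 0.00104 by edgeR).

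Relative to their means, the WT embryos varied more than the Dnmt3b-/- embryos for every gene except Tdrd12, so also for genes that did not rise. The contrast was largest for Mov10l1, Mael, Piwil2 and Ddx4. Raw WT counts were low for Mael (0 to 9) and Piwil2 (11 to 27), and the part of counting error was not tested. WT embryo 2 was the highest of its group for Piwil2 and Ddx4 and the lowest for Mael, Mov10l1, Tdrd1, Piwil4 and Tdrd12. Among the Dnmt3b-/- embryos the highest value exceeded the lowest by 1.14-fold for Mov10l1, 1.17-fold for Ddx4, 1.24-fold for Tdrd1, 1.49-fold for Piwil2, 1.60-fold for Mael and 1.82-fold for Asz1. Dnmt3b-/- embryo 2 was the highest of its group for Mael and Tdrd1 and the lowest for Asz1, Piwil2, Ddx4 and Mov10l1, so no embryo was at the top or the bottom for all of the genes that rose.

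Because the genes differ in length, levels were compared between them as FPKM, computed here from the normalized counts and the RefSeq exon length. In WT embryos the most abundant were Ddx4 (0.748 ± 0.430 FPKM) and Tdrd1 (0.563 ± 0.0888 FPKM), which overlapped between embryos. Tdrd12 followed with 0.241 ± 0.0120 FPKM, then Tdrd9 with 0.188 ± 0.0286 FPKM, Mov10l1 with 0.153 ± 0.121 FPKM and Piwil4 with 0.129 ± 0.0553 FPKM, the last 3 with overlapping embryos and Mov10l1 also overlapping Tdrd12. Mael, Asz1, Piwil1 and Piwil2 shared the lowest level, at 0.0640, 0.0601, 0.0580 and 0.0553 FPKM, and did not differ beyond their spread, which also reached into that of Piwil4. Of these 4 genes with the same WT level, Mael, Asz1 and Piwil2 rose in Dnmt3b-/- embryos and Piwil1 did not pass the test. The WT level therefore did not separate the genes that rose from the others, as Ddx4 and Tdrd1 at the top of the order also rose while Tdrd12 and Tdrd9 next to them did not pass the test.

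In Dnmt3b-/- embryos the order was different. Mael (7.44 ± 1.70 FPKM) and Ddx4 (6.73 ± 0.551 FPKM) were highest and overlapped, followed by Mov10l1 (2.39 ± 0.161 FPKM) and Tdrd1 (1.91 ± 0.218 FPKM), which did not overlap, then by Asz1 (1.30 ± 0.392 FPKM) and Piwil2 (0.826 ± 0.168 FPKM), which did. Piwil4 (0.227 ± 0.0652 FPKM), Tdrd12 (0.192 ± 0.0180 FPKM), Tdrd9 (0.128 ± 0.0122 FPKM) and Piwil1 (0.0541 ± 0.0100 FPKM) came last, with Piwil4 overlapping Tdrd12. In each Dnmt3b-/- embryo every gene that rose was above every gene that did not pass the test. The lowest value of the former was 0.677 FPKM, for Piwil2, and the highest of the latter 0.295 FPKM, for Piwil4, both in Dnmt3b-/- embryo 2. Both sets of genes were defined by the test on these same embryos, so this order partly follows from their definition.

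Ranked among 23881 genes with a known exon length, Mael moved from above 33.7% of the genes in WT to above 73.0% in Dnmt3b-/- embryos, Ddx4 from 49.6% to 71.6% and Mov10l1 from 39.0% to 59.8%. Asz1 moved from 33.4% to 54.2%, Piwil2 from 32.9% to 50.8% and Tdrd1 from 47.5% to 57.6%. These ranks include genes with too few counts to be tested, so they are not places among the expressed genes alone. Piwil1 remained at 33.2% and 33.5%, and Tdrd12 at 41.7% and 41.0%, whereas Piwil4 moved from 38.0% to 42.0% and Tdrd9 from 40.2% to 38.5%.

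The summed level of the 10 genes was 1.73, 2.43 and 2.62 FPKM in WT embryos 1, 2 and 3 and 19.9, 22.0 and 21.8 FPKM in Dnmt3b-/- embryos 1, 2 and 3. In share of raw reads, 8.004, 9.954 and 11.18 CPM fell on these genes in WT embryos and 60.1, 59.8 and 58.2 CPM in Dnmt3b-/- embryos. The sums of the Dnmt3b-/- embryos were close to each other although single genes differed by up to 1.82-fold. The composition also shifted. Mael made up 0% to 4.93% of the summed FPKM in WT embryos and 28.8% to 41.5% in Dnmt3b-/- embryos, and the 4 genes that did not pass the test each made up at most 1.34% there. Tdrd1 rose in level but fell in share, from between 20.7% and 30.1% to between 7.98% and 9.81%.

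**Figure D2:**
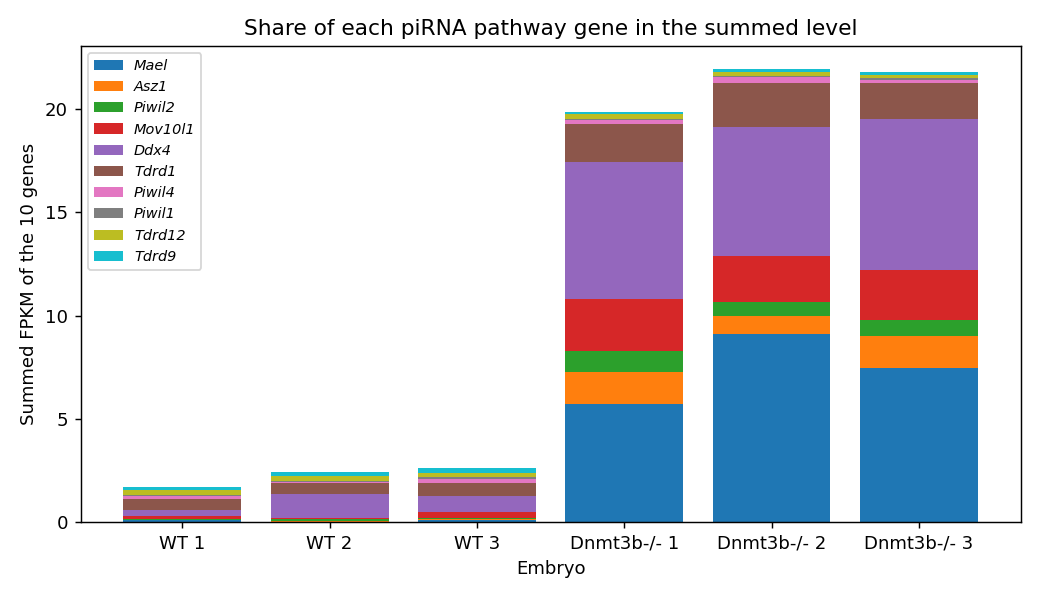
Summed FPKM of the 10 piRNA pathway genes in each embryo, with each colored segment giving the level of 1 gene. The WT bars reach 1.73 to 2.62 FPKM and the Dnmt3b-/- bars 19.9 to 22.0 FPKM, of which Mael and Ddx4 make up the largest segments.

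To compare genes of the same family directly, the difference of their log2(normalized count + 1) values was taken within each embryo. This removes most of the effect of library size, and the differences were compared between genotypes. Each pair set a gene that rose against one that did not pass the test, chosen with earlier results known. The direction of the shifts was thus given by the choice, and their sizes restate the fold changes of the single genes. Piwil2 exceeded Piwil1 by 0.46 ± 1.08 in WT and by 4.45 ± 0.41 in Dnmt3b-/- embryos on this log2 scale (SD, n = 3 each), a shift of 3.99. Relative to Piwil4, Piwil2 moved from -0.42 ± 1.66 to 2.76 ± 0.58, a shift of 3.18. The difference of Tdrd1 and Tdrd9 changed from 1.74 ± 0.17 to 4.03 ± 0.11, a shift of 2.29, and that of Tdrd1 and Tdrd12 from 0.97 ± 0.24 to 3.05 ± 0.15, a shift of 2.08. In each of the 4 pairs the 3 mutant values exceeded the 3 WT values, and the exact two-sided permutation test gave p = 0.1 (0.1 after Benjamini-Hochberg adjustment over the 4 pairs), the smallest value that 3 against 3 embryos allow, so that no pair could pass a threshold of 0.05.

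The 10 genes lie on 10 different chromosomes. Promoter sequences were taken from RefSeq (GRCm38.p6) as the 250 bases before the first curated transcription start listed for each gene, which were found for 9 of the 10 genes and not for Piwil2. For Mael, Asz1 and Piwil4 no RefSeq transcript of the gene starts further upstream. For Ddx4, Mov10l1, Tdrd1, Piwil1, Tdrd9 and Tdrd12 predicted transcripts do, so that their windows lie partly or, for Ddx4, wholly within the annotated gene. The windows of Mael and Asz1, which rose, and of Piwil4, which did not pass the test, are printed 5′ to 3′ on the strand of the gene, with each CpG dinucleotide, the substrate of DNA methyltransferases, in capitals, so that CpG content can be compared by eye. Mael is at chr1:166238745-166238994 (minus strand), Asz1 at chr6:18109062-18109311 (minus) and Piwil4 at chr9:14740673-14740922 (minus).
Mael: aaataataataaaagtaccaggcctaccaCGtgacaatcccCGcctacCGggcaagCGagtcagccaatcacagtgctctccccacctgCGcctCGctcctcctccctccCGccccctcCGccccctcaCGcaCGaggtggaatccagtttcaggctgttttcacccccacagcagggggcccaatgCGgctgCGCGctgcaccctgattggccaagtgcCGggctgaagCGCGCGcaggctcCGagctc
Asz1: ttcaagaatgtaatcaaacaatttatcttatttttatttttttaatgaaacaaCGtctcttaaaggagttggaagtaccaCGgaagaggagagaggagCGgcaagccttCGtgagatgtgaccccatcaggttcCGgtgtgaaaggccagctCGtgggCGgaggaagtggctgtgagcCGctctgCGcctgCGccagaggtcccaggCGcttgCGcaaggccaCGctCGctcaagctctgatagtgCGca
Piwil4: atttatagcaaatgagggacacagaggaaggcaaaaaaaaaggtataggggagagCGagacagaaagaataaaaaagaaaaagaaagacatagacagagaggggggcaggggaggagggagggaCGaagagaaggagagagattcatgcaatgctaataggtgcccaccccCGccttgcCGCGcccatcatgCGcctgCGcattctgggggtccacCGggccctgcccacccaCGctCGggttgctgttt

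The window of Ddx4 held 31 CpGs, more than 95.1% of 27018 mouse promoters of the same length, in which the median was 6 and the quartiles 2 and 16. Mov10l1 held 19, Mael 18, Asz1 15 and Tdrd1 11, with 22 at the second start listed for Tdrd1 and 3 at the third. Among the genes that did not pass the test, Piwil1 held 16, Piwil4 10, Tdrd9 8 and Tdrd12 6. The second start listed held 0 for Piwil4 and 5 for Tdrd12. The 5 genes that rose thus had 11 to 31 CpGs (median 18) and the 4 others 6 to 16 (median 9), ranges that overlap, since Piwil1 had more CpGs than Asz1 and Tdrd1. Among further genes of the pathway the medians had the opposite order, with 11 to 21 CpGs (median 16) in 4 genes that were called and 3 to 40 (median 21) in 7 that were not. The count of 3 was at the first start of Tdrd7, whose other starts held 28 and 29. Further starts held 14 for Pld6, 29 for Fkbp6 and 26 for Stk31, so the counts depend on the start chosen. These counts are a description of the windows, and methylation was not analysed here.

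Motifs of known repressors and activators of germline genes were searched on both strands of the same windows. CACGTG, the E-box, was present in Mael, Ddx4, Mov10l1 and Tdrd1 once each, and in Piwil1 and Tdrd9 2 times each, that is in 4 of 5 genes that rose and in 2 of 4 that did not pass the test, against 6.05% of all promoters. TCCCGC, the core of the E2F motif, was present in Mael and Ddx4 and in 16.9% of all promoters, and TAACNG, the MYB motif, in Mov10l1 and Piwil1 with 2 matches each and in 19.8% of all promoters. No match overlapped a match of another motif. CACGTG and TCCCGC each contain a CpG, and the shares of all promoters were not matched for CpG content. An enrichment of the motifs was not tested. Asz1, which rose 21.7-fold, held none of the 3 letter strings in its window, and neither did Piwil4 and Tdrd12.

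Sex is not given by the labels, but each library had either high Xist or the Y-linked genes Ddx3y, Kdm5d, Eif2s3y and Uty, which made WT embryos 1 and 3 and Dnmt3b-/- embryo 2 female and the other 3 male. The folds of the genes were therefore also read within a sex, without a test, from 2 WT and 1 Dnmt3b-/- females and 1 WT and 2 Dnmt3b-/- males. Mael was 95.0-fold higher in females and at least 143-fold higher in males, where the WT embryo had 0 counts and was set to the floor of 3 counts. Asz1 was 15.2-fold and 22.3-fold higher, Piwil2 21.9-fold and 8.65-fold, Mov10l1 10.6-fold and 70.1-fold, Ddx4 11.6-fold and 5.95-fold, and Tdrd1 3.64-fold and 3.55-fold. All 6 genes were thus higher in both sexes, and with sex as a covariate, a fit chosen after the data were seen, the same 6 were called, with log2 fold changes from 1.85 for Tdrd1 to 7.07 for Mael. The ratios of the 4 others within females and males were 1.83 and 2.96 for Piwil4, 0.866 and 0.936 for Piwil1, 0.760 and 0.631 for Tdrd9, and 0.799 and 0.825 for Tdrd12.

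A whole E8.5 embryo contains few primordial germ cells, the lineage in which piRNA genes are later expressed, and in bulk samples a larger number of cells of a type and more RNA per cell cannot be told apart. Of 10 primordial germ cell markers, 8 were tested and 0 were called by edgeR. Ifitm3 alone had an adjusted p below 0.05 (0.00284 by edgeR, log2 fold change 0.96), and the median log2 fold change was 0.13. At an unadjusted p below 0.05 there were 2 higher (Ifitm3 and Dppa3) and 1 lower (Pou5f1), and DESeq2 called 1 higher (Dppa3, adjusted p = 0.0137) and limma called 0. The summed level of the markers was 2922 to 3848 normalized counts in WT and 3003 to 4122 in Dnmt3b-/- embryos, with overlap, while the sum of the piRNA genes was 371 to 522 and 2878 to 2971. The most abundant markers were Kit, with 1457 ± 127 and 1491 ± 277 normalized counts, and Prdm1, with 667 ± 103 and 593 ± 109. Nanos3 and Prdm14, restricted to germ cells at this stage, had raw counts of 0 to 15 and 0 to 12 in the 6 embryos. Group means were 5.91 and 3.73 normalized counts for Nanos3 and 4.21 and 6.09 for Prdm14. The marker sum thus depends mostly on the abundant markers and is no measure of the number of germ cells. Among the less abundant markers, Dppa3, singled out after its values were seen, was highest in Dnmt3b-/- embryo 3 with 152 raw counts against 9 to 34 in the other embryos, and Pou5f1, likewise singled out, was highest in WT embryo 2 with 731 raw counts against 28 to 90.

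Other tissues differed between the libraries to an extent that is given here for reading the values. The 6 yolk sac endoderm markers, led by Apob and Cubn, summed to 19327 to 172389 normalized counts in WT and 10722 to 38730 in Dnmt3b-/- embryos, with WT embryo 2 the highest. They had a median log2 fold change of -1.20 and 0 of 6 called by edgeR, with Apob and Cubn lower at an unadjusted p below 0.05, 1 (Apob) called lower by DESeq2 with an adjusted p of 0.0478, and 0 called by limma. Of 6 trophoblast and decidua markers, Tpbpa, Prl3d1, Prl2c2 and Prl8a2 had 0 counts in all 6 embryos and Gcm1 had 0 to 17. Elf5, the only one tested, had 33.3, 25.3 and 21.2 normalized counts in WT and 35.1, 59.5 and 74.8 in Dnmt3b-/- embryos, without overlap (log2 fold change 1.08, unadjusted p = 0.0334 and adjusted p = 0.0802 by edgeR). The 6 markers of the embryo proper (T, Tbx6, Meox1, Sox1, Pax3 and Nkx2-5) were detected in all embryos and 0 were called by edgeR, DESeq2 or limma, since all changes were under 2-fold, but Sox1 was higher and Nkx2-5 lower with an adjusted p below 0.05 by edgeR (0.0247 and 0.0149), and Pax3 was higher at an unadjusted p below 0.05. The part of these differences in the values of the piRNA genes was not tested.

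**Figure D3:**
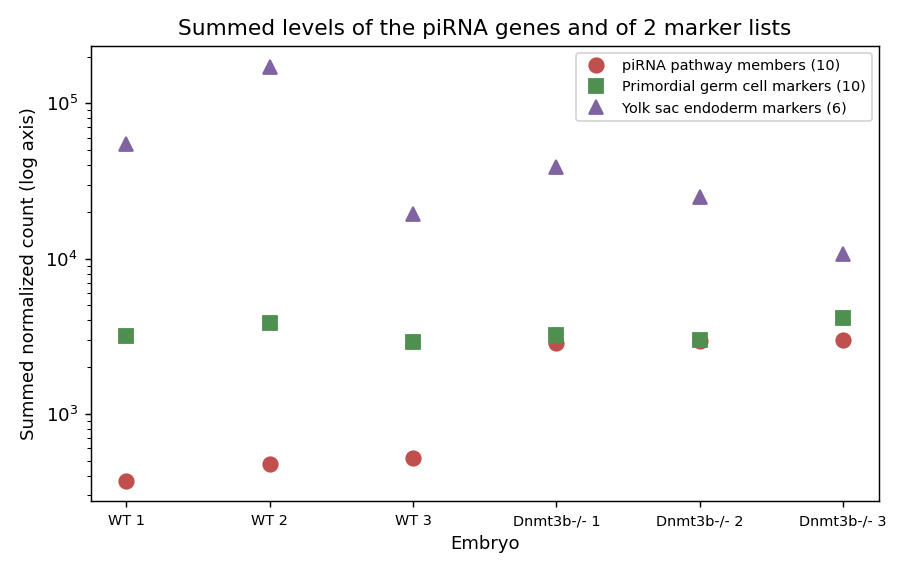
Summed normalized counts (log axis) of the 10 piRNA pathway genes (circles), 10 primordial germ cell markers (squares) and 6 yolk sac endoderm markers (triangles) in each embryo. The piRNA sum is 371 to 522 in WT and 2878 to 2971 in Dnmt3b-/- embryos. Germ cell marker sums of the genotypes overlap between 2922 and 4122, and the yolk sac sum is highest in WT embryo 2. Kit and Prdm1 lead the germ cell marker sum, which is no measure of the number of germ cells.

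The rest of the pathway was described with a list of 21 further piRNA genes, of which 20 were found in the table (Spocd1 was not matched) and 16 were tested. Of these, 7 were called higher, 0 lower (by DESeq2 and limma too, and 0 were lower at an unadjusted p below 0.05), and 8 did not reach an adjusted p below 0.05 by edgeR, beside 2.12% called higher among all genes, and the median log2 fold change was 0.98. Fkbp6 and Rnf17 belong to the genes that the study itself named as targets of promoter methylation, so the list is not independent evidence. The largest increases were those of the piRNA biogenesis factors Gpat2 and Fkbp6. Gpat2, a mitochondrial outer membrane protein, rose from 13.2 ± 5.47 to 280 ± 85.9 normalized counts (log2 fold change 4.37, SE 0.39, adjusted p = 0.000488 by edgeR), and Fkbp6, a cochaperone in piRNA loading, from 10.9 ± 6.66 to 176 ± 18.2 (log2 fold change 4.04, SE 0.43, adjusted p = 0.000697 by edgeR). Both were of the size seen for Asz1, Piwil2 and Mov10l1.

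Stk31, a Tudor domain protein, rose from 17.1 ± 6.91 to 170 ± 29.7 normalized counts (log2 fold change 3.33, adjusted p = 0.000804 by edgeR). Rnf17, a Tudor protein of germ cell granules, rose from 489 ± 180 to 1532 ± 147 (log2 fold change 1.65, adjusted p = 0.00167), and Pnldc1, the exonuclease that trims piRNA ends, from 35.2 ± 7.10 to 113 ± 12.7 (log2 fold change 1.67, adjusted p = 0.00384). Like Tdrd1, Rnf17 was expressed above the floor in every WT embryo and rose about as much on the log2 scale. Tex19.1 rose from 49.0 ± 32.5 to 164 ± 34.7 (log2 fold change 1.75, adjusted p = 0.0220) and Tex15, a factor in PIWIL4-directed methylation, from 672 ± 287 to 1485 ± 279 (log2 fold change 1.15, adjusted p = 0.0161), but with each embryo left out in turn Tex19.1 was called in 3 of 6 fits (not without WT 1, Dnmt3b-/- 1 or Dnmt3b-/- 2) and Tex15 in 2 of 6 (not without WT 1, WT 3, Dnmt3b-/- 2 or Dnmt3b-/- 3), and the call of Tex15 was also lost with GC content and length removed. Mybl1 (A-MYB), the activator of piRNA genes in meiosis, had an adjusted p of 0.00159 by edgeR but stayed under 2-fold, at 413 ± 13.2 and 728 ± 31.5 normalized counts.

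The list also had genes that did not pass the test. Ddx25, a helicase of germ cell granules and among the 3 most abundant genes of the list with Tex15 and Rnf17, was at 755 ± 81.0 normalized counts in WT and 780 ± 79.7 in Dnmt3b-/- embryos (log2 fold change 0.05, SE 0.13, adjusted p = 0.812 by edgeR). Pld6, Tdrkh, Henmt1, Exd1, Tdrd5, Tdrd7 and Morc1 did not pass the test either, with log2 fold changes from -0.70 for Tdrd5 to 1.78 for Morc1. Morc1 had raw counts of 5, 9 and 8 in WT and 32, 32 and 3 in Dnmt3b-/- embryos, a 3.41-fold difference of the means (adjusted p = 0.132 by edgeR), and it was called higher without Dnmt3b-/- replicate 3. Tdrd6, Gtsf1, Btbd18 and Dnmt3l were below the mean of 10 counts and were not tested.

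**Figure D4:**
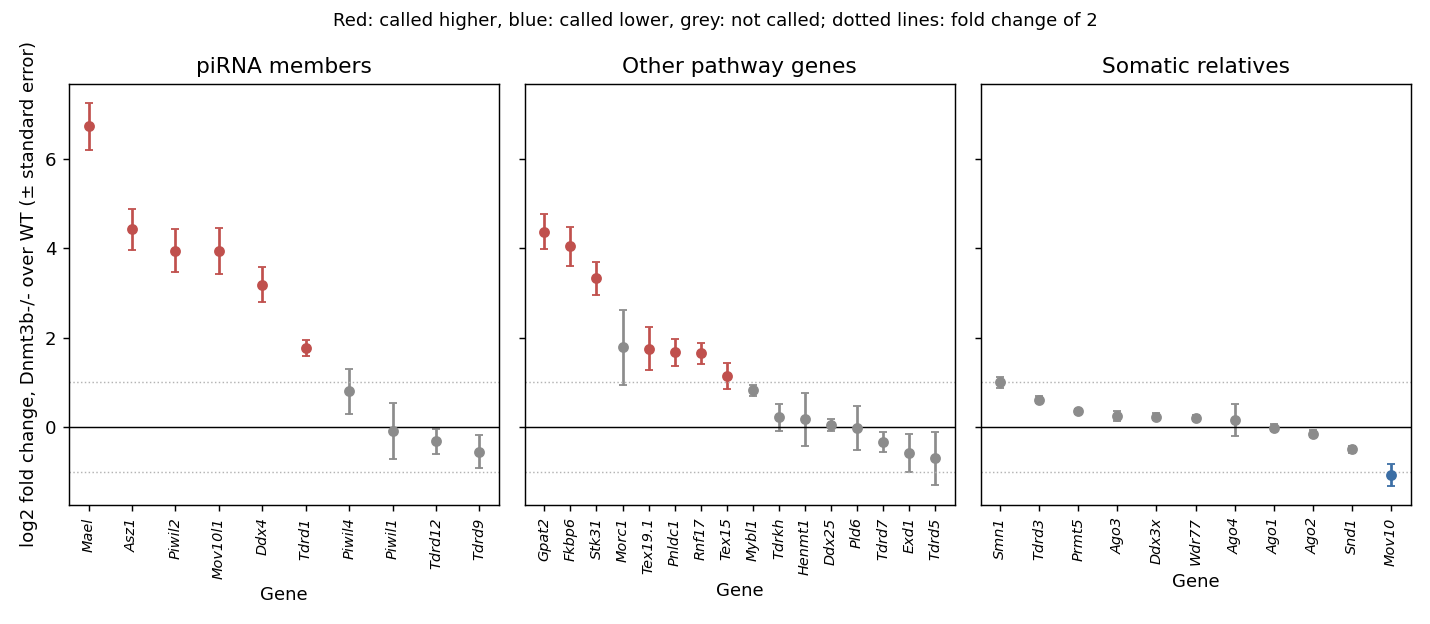
Log2 fold change between the genotypes (Dnmt3b-/- over WT) with its standard error for the 10 piRNA pathway genes (left), the 16 tested genes of the rest of the pathway (middle) and 11 somatic relatives (right), with red for called higher, blue for called lower and grey for not called. In the left panel 6 of 10 genes lie above the dotted line of a 2-fold change and are called, and 7 of 16 genes in the middle panel and 0 of 11 in the right panel are called higher. Among all tested genes 2.12% were called higher.

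Relatives of the piRNA genes that act in all cells served for contrast, namely the Argonautes Ago1, Ago2, Ago3 and Ago4 for the PIWI proteins, Mov10 and Ddx3x for the helicases, Tdrd3, Snd1 and Smn1 for the Tudor proteins, and Prmt5 and Wdr77, which methylate the arginines that Tudor domains bind. Of these 11 genes 0 were called higher and 1 was called lower by edgeR, beside 2.12% and 3.78% of all tested genes. A list of 11 genes is too short to tell such counts from these shares. The median log2 fold change of the list was 0.20. DESeq2 called 1 higher (Smn1, at the 2-fold limit) and limma 0, and 5 were higher at an unadjusted p below 0.05 (Ddx3x, Tdrd3, Smn1, Prmt5 and Wdr77). An adjusted p below 0.05 by edgeR was reached by 3 genes in the higher direction (Tdrd3, Smn1 and Prmt5) and by 2 in the lower (Mov10 and Snd1). Among all tested genes the shares were 17.6% and 18.1%. Mov10, the ubiquitous paralog of Mov10l1, fell from 769 ± 168 to 367 ± 115 normalized counts (log2 fold change -1.07, SE 0.25, adjusted p = 0.0112 by edgeR) while Mov10l1 rose 15.7-fold, but the call of Mov10 was lost without WT 2, Dnmt3b-/- 2 or Dnmt3b-/- 3 and with GC content and length removed. Ddx3x, a ubiquitous DEAD-box helicase, had 62584 ± 2069 and 73465 ± 6755 normalized counts (adjusted p = 0.0550). Prmt5 rose by less than 2-fold (log2 fold change 0.35, adjusted p = 0.00421 by edgeR) and Wdr77 was at log2 fold change 0.20 (adjusted p = 0.0557).

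The split of the 10 genes was the same when the filter, the scaling, the test or the embryos included were changed (14 fits), and with the added sex covariate. Mael, Asz1, Piwil2, Mov10l1, Ddx4 and Tdrd1 were called in all 15 fits, with an adjusted p of at most 0.00996 (for Mov10l1). Their log2 fold changes ranged from 6.26 to 7.19 for Mael, from 3.99 to 4.66 for Asz1, from 3.62 to 4.72 for Piwil2, from 3.51 to 4.64 for Mov10l1, from 2.79 to 3.66 for Ddx4 and from 1.67 to 1.90 for Tdrd1. Piwil4, Tdrd9, Tdrd12 and Piwil1 were called in 0 of the fits that tested them, though DESeq2 gave Piwil1 no adjusted p. Their ranges were 0.49 to 1.17, -0.67 to -0.45, -0.48 to -0.24 and -0.47 to 0.04, so that the sign of Piwil1 was not fixed.

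**Figure D5:**
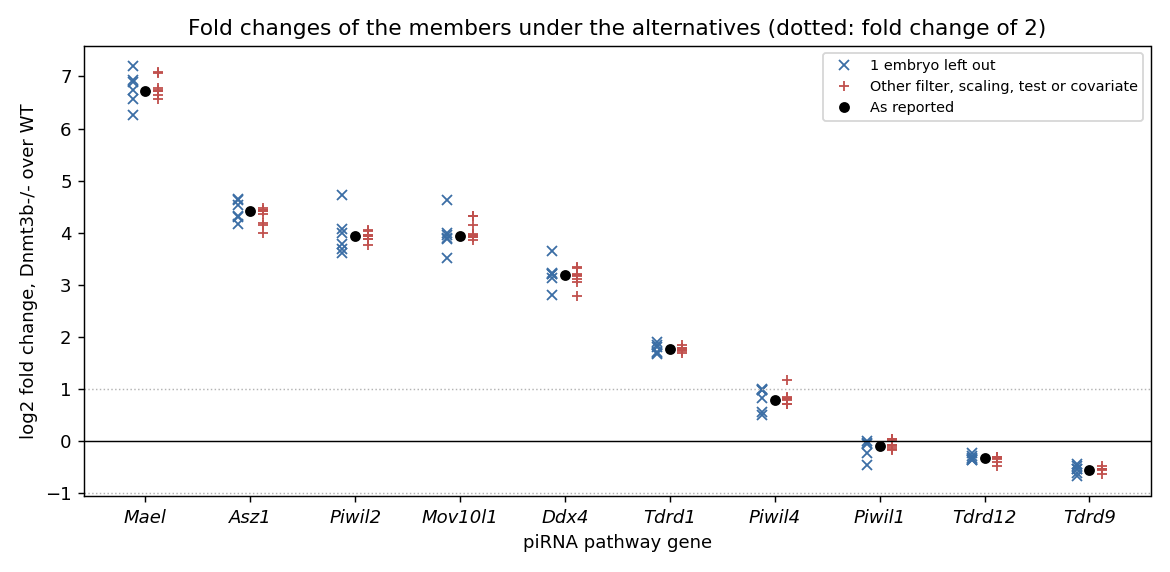
Log2 fold change between the genotypes (Dnmt3b-/- over WT) for each piRNA pathway gene as reported (black dots), with 1 embryo left out (blue crosses) and with another filter, scaling, test or covariate (red plus signs). The 6 genes on the left stay above the dotted line of a 2-fold change in every fit, and Piwil1 moves across 0.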

How the data were processed

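Expression was taken from the raw counts deposited by the authors for 6 RNA-Seq libraries of E8.5 embryos, which they aligned to mm10 with TopHat2 2.0.12 and counted in RefSeq exons with HTSeq 0.6.0. The RefSeq release and the strand setting are not given in the sources used here. The table also holds counts normalized by DESeq2 1.4.5 and the fold changes and adjusted p-values of the authors' own comparison, which were not used, and the methylation libraries of the series were not analysed here.

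Genes averaging 10 or more counts over the 6 embryos (15114) were scaled by TMM and tested in R 4.3.3 using edgeR 4.0.16 (glmQLFit and glmQLFTest), with Benjamini-Hochberg adjustment over all of them. Fits were tested on simulated data. Replicates come from littermate embryos, and p-values cover only the spread between these samples. Floors of 3 counts cover counting error only, since reads without molecular identifiers are not independent molecules. Exon lengths and positions came from RefSeq on GRCm38, in which 99.2% of the genes were matched, 22604 by symbol and 1277 by an older symbol.

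The 10 genes, the gene lists and the family pairs were chosen with earlier results of these data known. Named are all 10 genes, of the other pathway genes and the somatic relatives every called gene and the 3 most abundant, and of each marker list every called gene and the 2 most abundant. Genes outside this rule are named only to complete a list or a count. Alternatives were no filter or a mean of 50 counts, DESeq2 size factors or total counts as scaling, DESeq2 1.42.0, limma 3.58.1, a replicate block, removal of GC content and length by splines with 5 degrees of freedom, each embryo left out in turn, and, for the family pairs, pseudocounts of 0.1 and 5. Sex as a covariate was added after seeing the data.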

Additional observations from a re-analysis of the deposited data

How the results depend on the processing

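The count of 6 piRNA genes called higher was obtained under all 15 alternatives, and that of the other pathway genes was 5 to 7. Piwil1 changed sign, with log2 fold changes of 0.0415 with limma, 0.0420 with GC content and length removed and 0.0219 with the replicate block, and a range of -0.47 to 0.0106 with each embryo left out. It had too few counts to be tested in 2 alternatives, and the DESeq2 test gave it no adjusted p. Piwil4 and Tdrd9 had too few counts in 1. Somatic relatives called numbered 2 with DESeq2 size factors, with the DESeq2 test and with sex as a covariate, 0 with GC content and length removed, and 0 to 2 with each embryo left out, where Smn1, with a log2 fold change of 1.00 as reported, lies at the 2-fold limit. The shifts within family pairs, whose direction was given by the choice of pairs, were positive in all alternatives too. With each embryo left out they ranged from 3.39 to 4.44 for Piwil2 and Piwil1, 2.67 to 4.14 for Piwil2 and Piwil4, 2.19 to 2.36 for Tdrd1 and Tdrd9, and 1.99 to 2.22 for Tdrd1 and Tdrd12. Over all genes 320 were called higher and 571 lower, against 313 and 128 with GC content and length removed, and total count scaling gave 246 and 710 with a median log2 fold change of -0.11. The deviations of same-numbered embryos from their group means correlated at -0.05, -0.15 and -0.01, which gave no sign of pairing by number. Same-numbered embryos were of opposite sex, so these correlations cannot exclude a pairing. The fit with the replicate block called 6 piRNA genes, 7 other pathway genes and 1 somatic relative, and 265 genes higher and 516 lower over all genes. Depth limits Piwil1 most, with 6 to 19 counts in an embryo, and the WT levels of Mael and Asz1, with 0 to 9.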
